A study of Mus musculus with 12 samples.

Results

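The genes described here are the 3 NR4A orphan nuclear receptor genes Nr4a1, Nr4a2 and Nr4a3 and the TOX factor genes Tox and Tox2. They were taken by symbol and are 5 of the 23479 gene symbols counted. RNA was sequenced from CD4+ T cells of the spleen of mice labelled C57BL/6J (wild type, WT) and of Sirt2-/- mice (KO), which lack the deacetylase Sirt2. Negatively selected cells gave RNA either ex vivo (0 h) or following 24 h of culture on immobilised anti-CD3 (clone 145-2C11, 5 μg/ml), without other added agents in the labels. Each combination of genotype and time held 3 libraries, 12 in all. The labels state neither the mice's age nor that replicates were separate animals, and if they were not, the p-values cover technical spread only. No culture without anti-CD3 was included, so the effects of the antibody and of 24 h in culture cannot be told apart.

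NR4A proteins are transcription factors of the nuclear receptor family that act without a known activating hormone, so the amount of protein made is a main control of their activity. Their genes are switched on quickly by antigen receptor signalling, and Nr4a1, whose product is Nur77, is widely used as a reporter of T cell receptor signal strength. TOX proteins bind DNA through a high mobility group box. Tox is required for CD4 T cells to form in the thymus, Tox2 is linked to follicular helper T cells, and both families are known, downstream of the calcium-regulated factor NFAT, for the gene programme of exhausted T cells.

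The 3 receptor genes are induced together in many cell types, and their start regions are shown because they share a short element. The 250 bases upstream of the RefSeq start are given 5′ to 3′ on the gene's own strand, from build GRCm38.p6. Capitals mark TGACG, the core of the cAMP response element bound by CREB and ATF factors, or CGTCA, the same core on the other strand.
Nr4a1 (chr15:101266596-101266845, plus strand): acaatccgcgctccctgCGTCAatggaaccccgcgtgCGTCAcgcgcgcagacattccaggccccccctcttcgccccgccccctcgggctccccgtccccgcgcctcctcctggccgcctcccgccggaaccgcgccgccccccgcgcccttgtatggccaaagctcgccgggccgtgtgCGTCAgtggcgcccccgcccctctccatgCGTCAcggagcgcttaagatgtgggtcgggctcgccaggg
Nr4a2 (chr2:57124004-57124253, minus strand): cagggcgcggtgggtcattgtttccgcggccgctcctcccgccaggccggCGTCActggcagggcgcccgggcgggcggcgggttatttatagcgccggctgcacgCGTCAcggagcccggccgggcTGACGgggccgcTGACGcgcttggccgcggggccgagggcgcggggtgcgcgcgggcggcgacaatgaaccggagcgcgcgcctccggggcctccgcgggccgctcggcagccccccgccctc
Nr4a3 (chr4:48045055-48045304, plus strand): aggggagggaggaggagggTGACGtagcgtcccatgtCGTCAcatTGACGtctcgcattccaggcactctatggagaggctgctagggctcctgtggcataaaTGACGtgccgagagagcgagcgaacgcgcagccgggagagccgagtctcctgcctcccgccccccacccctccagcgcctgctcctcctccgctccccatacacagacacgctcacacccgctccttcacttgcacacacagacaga
Each of the 3 windows held 4 copies of the core. Their first bases lay at -233, -213, -69 and -40 from the start in Nr4a1, at -200, -144, -123 and -111 in Nr4a2, and at -231, -213, -205 and -147 in Nr4a3. Of the 32851 RefSeq windows of the same length, 17.8% held at least 1 copy and 45, or 0.137%, held at least 4. The windows are rich in G and C, at 74.4% for Nr4a1, 80% for Nr4a2 and 63.6% for Nr4a3. Among windows within 2 percentage points of the same content, 3 of 1193 (0.251%), 2 of 512 (0.391%) and 14 of 2890 (0.484%) held at least 4 copies, counting the receptor genes themselves.

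Other elements were searched on both strands as well. The full palindrome TGACGTCA, which contains the core, was in none of the 3 windows and in 1.55% of all windows. The NFAT core GGAAA was found once in Nr4a2 and not in Nr4a1 or Nr4a3, against 55.6% of all windows with at least 1. The AP-1 site TGANTCA (6.75% of all windows) and the NR4A monomer site AAAGGTCA (1.34%) were in none of the 3. A TATAAA box was in Nr4a2 alone among the 3 (12.4% of all windows), overlapping the only MEF2 site found (2.92% of all windows). The GC box GGGCGG occurred 3 times in Nr4a1, 4 times in Nr4a2 and 1 time in Nr4a3 (32.7% of all windows had at least 1), and the serum response element in none of them (1.47%). RefSeq windows were matched for 4 of the 5 genes. Tox was not among them, and of the 5 windows listed for Tox2, 1 held a single copy of the TGACG core. These matches describe the letters in the windows, and binding was not measured.

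The libraries held 3628860 to 10025352 reads in genes, and the KO 24 h libraries 3628860 to 5330136. The deleted gene was checked first. Sirt2 stood at 74.6 ± 9.42 CPM (reads relative to the scaled size of the library, mean ± SD, n = 3) in WT and 12.4 ± 3.59 in KO cells at 0 h, against 67.2 ± 7.92 and 13.2 ± 5.60 at 24 h. Every KO library lay below every WT library at both times. The 7 T cell markers in the table, Cd4 and Cd3e among them, summed to 5476 to 6520 CPM in the 0 h libraries and to 2553 to 2953 CPM in the 24 h libraries. Macrophage and monocyte markers summed to at most 14.8 CPM, dendritic cell markers to at most 5.83 and granulocyte markers to at most 0.874 in any library.

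Per kilobase of exon, Nr4a1 was the most abundant of the 5 genes in all 4 groups. Its mean level was 105 CPM per kb in WT and 82.6 in KO cells at 0 h, and 344 and 300 at 24 h. On the same scale Tox was next at 0 h, with 35.5 in WT and 31.7 in KO, followed by Nr4a3 with 26.6 and 18.4. At 24 h Nr4a3 took the next place, with 164 CPM per kb in WT and 157 in KO, and Nr4a2 exceeded Tox, with 37.0 and 32.5 against 12.4 and 9.90. Tox2 was low throughout, from 4.91 CPM per kb in WT 0 h to 1.00 in KO 24 h, and stood near Nr4a2 at 0 h, which had 6.58 in WT and 4.46 in KO. All 5 genes passed the filter on low counts.

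All 3 receptor genes rose in both genotypes between 0 h and 24 h, and both TOX genes fell. The background of this contrast is broad. In WT cells 20.2% of the 10981 tested genes rose and 20.5% fell at an adjusted p below 0.05, and in KO cells 19.4% rose and 21.0% fell, so a call in this contrast is common among all genes. How many of all tested genes had no overlap between their 0 h and 24 h libraries was not computed. Over the 5 genes, of which 3 rose and 2 fell, the median log2 fold change was the value of Nr4a1. It was 1.72 in WT and 1.86 in KO, against 0.003 and -0.003 over all tested genes. Cell markers differed between times as well. T cell markers summed to less at 24 h, where 6 of 7 fell in WT and 7 of 7 in KO, and NK cell markers went from 14.1 to 28.1 CPM in the 0 h libraries to 0.201 to 1.03 CPM in the 24 h libraries. B cell markers summed to 16.8 to 29.9 CPM at 0 h and 2.93 to 7.22 CPM at 24 h. The part of such cells in the time effects below was not tested.

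Nr4a1 was measured in WT cells at 424, 330 and 349 CPM at 0 h (replicates 1, 2 and 3) and at 1168, 1065 and 1385 CPM at 24 h. In KO cells it stood at 287, 290 and 293 CPM at 0 h and at 1006, 1020 and 1137 CPM at 24 h. Every 24 h library was above every 0 h library, and the KO 0 h libraries were the tightest of the 4 groups. The rise was 3.28-fold in WT (log2 1.72, SE 0.0955, edgeR quasi-likelihood test with Benjamini-Hochberg adjustment, adjusted p = 8.28e-20) and 3.64-fold in KO (log2 1.86, SE 0.0965, adjusted p = 6.06e-21).

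Nr4a2, which encodes Nurr1, a factor needed for dopamine neurons to develop, was the rarest of the 3. Ex vivo the WT libraries held 26.7, 25.9 and 27.7 CPM and the KO libraries 13.0, 21.5 and 20.0 CPM. At 24 h the WT libraries had 143, 137 and 170 CPM and the KO libraries 135, 135 and 126 CPM. The first KO 0 h library had the lowest level of the 12, and the 2 times did not overlap in either genotype. Nr4a2 rose 5.61-fold in WT (log2 2.49, SE 0.125, edgeR adjusted p = 1.70e-21) and 7.44-fold in KO (log2 2.90, SE 0.133, edgeR adjusted p = 6.55e-23).

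Nr4a3, which encodes NOR1, was at 185, 149 and 143 CPM in WT and at 131, 114 and 86.4 CPM in KO libraries ex vivo. At 24 h it reached 1024, 834 and 1081 CPM in WT and 926, 954 and 943 CPM in KO. Again no 24 h library came near the 0 h range, and the 3 KO 24 h libraries lay inside the WT 24 h range. The fold change was the largest of the 5 genes in each genotype, 6.18-fold in WT (log2 2.63, SE 0.123, edgeR adjusted p = 8.82e-16) and 8.47-fold in KO (log2 3.08, SE 0.126, edgeR adjusted p = 5.08e-17).

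Tox moved the other way. At 0 h it had 307, 236 and 266 CPM in WT cells and 273, 232 and 220 CPM in KO cells. At 24 h the WT libraries had 96.4, 96.4 and 89.7 CPM and the KO libraries 67.2, 79.0 and 79.6 CPM. All 6 libraries of 24 h lay below all 6 of 0 h. Tox fell by 1.52 on the log2 scale in WT (SE 0.0993, edgeR adjusted p = 2.58e-17), to 0.350 of its 0 h level, and by 1.69 in KO (SE 0.103, edgeR adjusted p = 2.05e-18), to 0.311 of it. An exon of the gene Gm11802 overlaps Tox on the opposite strand, and whether reads were counted by strand is not given in the sources used here.

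Tox2 was near the lower end of what these libraries resolve, with 63 to 191 reads per 0 h library and 15 to 52 reads per 24 h library. At 0 h it stood at 17.3, 8.87 and 23.9 CPM in the WT libraries and at 14.2, 10.2 and 12 CPM in the KO libraries. At 24 h these were 6.43, 2.87 and 7.25 CPM and 3.84, 2.62 and 3.73 CPM. The second WT library was the lowest of its group at both times, and the 24 h and 0 h ranges did not overlap in either genotype. Tox2 fell by 1.63 on the log2 scale in WT (SE 0.309, edgeR adjusted p = 3.42e-05) and by 1.85 in KO (SE 0.348, edgeR adjusted p = 3.20e-05). Reads in a bulk library cannot separate fewer cells that carry a transcript from less of it per cell, for Tox2 as for the other 4 genes.

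**Figure D1:**
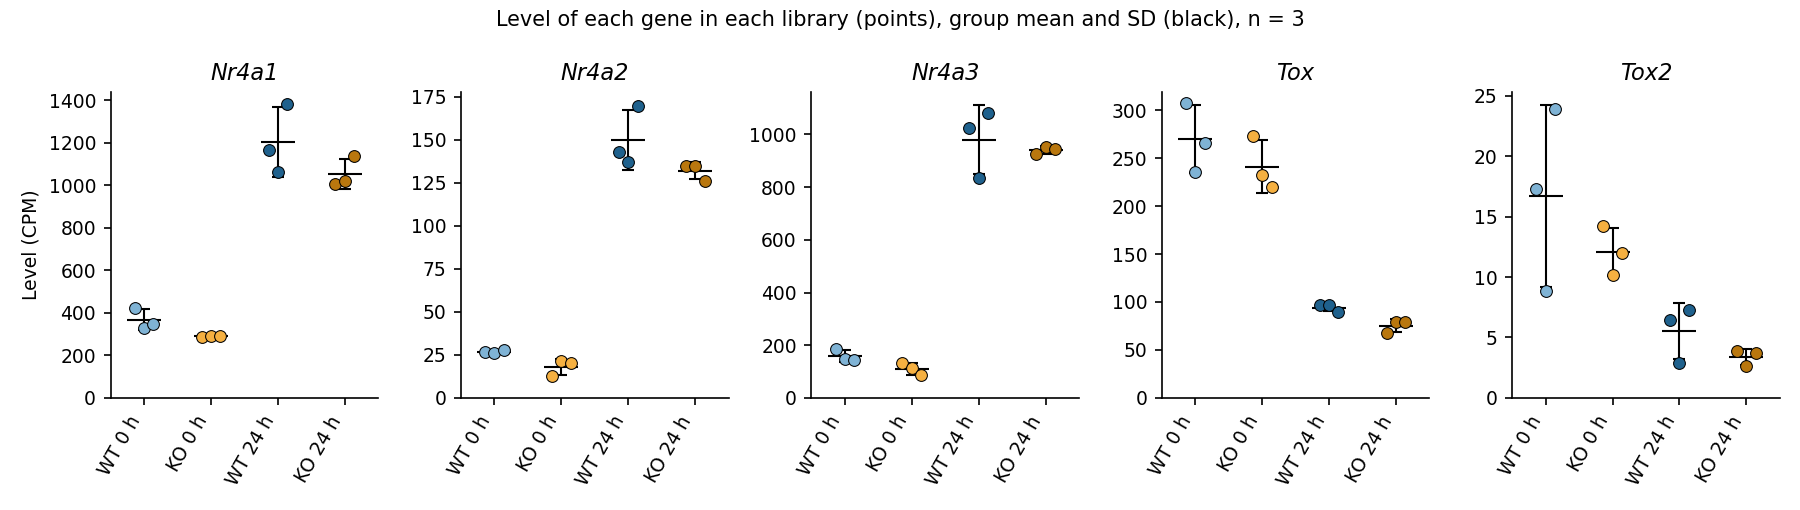
Level of each gene in CPM (vertical axis, linear from 0, own scale per panel) in the 12 libraries, shown as points by group, with the mean and SD in black (n = 3). The 3 receptor genes are higher in every 24 h library than in any 0 h library, and Tox and Tox2 are lower. The share of all tested genes with such a separation was not computed.

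The TOX family split over time. Tox4, a broadly expressed member that takes part in a phosphatase complex on chromatin, rose in WT from 138 ± 1.83 to 177 ± 5.11 CPM (SD, n = 3, log2 0.36, SE 0.0872, edgeR adjusted p = 6.57e-04). In KO it had 133 ± 8.60 and 154 ± 9.50 CPM, a log2 difference of 0.21 (SE 0.0887) that missed the threshold (edgeR adjusted p = 0.0576), and the 2 genotypes' time effects were not shown to differ (interaction -0.16, edgeR adjusted p = 0.996). Exons of Mettl3 and Rab2b overlap Tox4 on the opposite strand. Tox3 had 0 to 6 reads per library and was not tested.

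The makeup of the receptor transcripts shifted with time. Nr4a1 supplied 66.7%, 65.4% and 67.2% of the reads of the 3 receptor genes in the WT 0 h libraries and 50.0%, 52.3% and 52.5% in the WT 24 h libraries. In KO cells its share was 66.6%, 68.2% and 73.3% at 0 h and 48.7%, 48.4% and 51.5% at 24 h. Nr4a3 took most of the difference. Its mean share went from 28.7 ± 1.07% to 41.9 ± 1.66% in WT cells (SD, n = 3) and from 26.3 ± 4.39% to 44.3 ± 1.34% in KO cells. Nr4a2 stayed a minor part, from 4.35 ± 1.16% in KO 0 h to 6.44 ± 0.311% in WT 24 h. Longer transcripts give more reads, so the shares describe reads and not molecules.

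Ratios within a library restate this shift of the receptor genes from the same reads and add no separate evidence for it. Like the shares, they do not depend on the scaling between libraries. The ratio of Nr4a3 to Nr4a1 was 0.432 ± 0.0214 in WT 0 h and 0.813 ± 0.0549 in WT 24 h (SD, n = 3), and 0.381 ± 0.0812 and 0.895 ± 0.0575 in KO. The 24 h ratios were above all 0 h ratios in each genotype. With 3 libraries against 3 the two-sided exact permutation test cannot go below p = 0.1, and it gave 0.1 in WT and in KO (0.4 after Benjamini-Hochberg adjustment over 16 such tests). The ratio of Nr4a2 to Nr4a1 went from 0.0736 ± 0.00923 to 0.125 ± 0.00362 in WT and from 0.0625 ± 0.0152 to 0.126 ± 0.0129 in KO, with the same exact permutation p of 0.1 in each. Nr4a2 against Nr4a3 gave overlapping ranges over time, 0.144 to 0.194 at 0 h and 0.139 to 0.165 at 24 h in WT (exact permutation p = 0.4, adjusted 0.711). Tox2 against Tox was 0.0613 ± 0.0264 and 0.0591 ± 0.0264 in WT and 0.0502 ± 0.00570 and 0.0458 ± 0.0121 in KO (exact permutation p = 1.00 and 0.7, adjusted 1.00 and 0.862), so the ranges of this pair also overlapped.

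**Figure D2:**
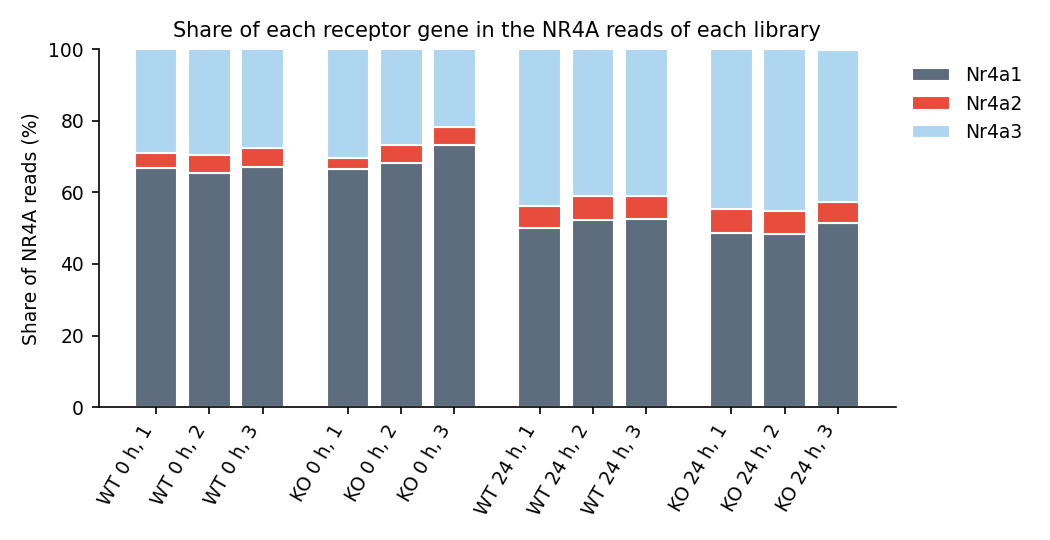
Share of Nr4a1, Nr4a2 and Nr4a3 (stacked, percent, from 0 to 100) in the reads of the 3 receptor genes, with 1 bar per library. The Nr4a1 segment runs from 65.4% to 73.3% in the 6 libraries of 0 h and from 48.4% to 52.5% in the 6 of 24 h.

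Genotype differences were small beside those of time. At 0 h the log2 fold change of KO against WT was below 0 for all 5 genes, with a median of -0.46 against 0.004 over all tested genes, of which 49.1% were below 0. Nr4a2 alone of the 5 passed at an adjusted p below 0.05. Over all tested genes 0.346% passed in either direction and 0.228% were lower in KO, which is 38 and 25 genes. For the 3 receptor genes every KO 0 h library lay below every WT 0 h library, a pattern found in 6.37% of all tested genes, and for Tox and Tox2 the ranges overlapped.

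Mean Nr4a2 at 0 h was 26.7 ± 0.878 CPM (SD, n = 3) in wild-type and 18.1 ± 4.53 CPM in Sirt2-/- cells. It fell by 0.59 on the log2 scale (SE 0.143, 95% interval -0.88 to -0.31, edgeR adjusted p = 0.0447). This call rests on 106 to 133 reads in each KO library and 154 to 221 in each WT library. Without the first KO 0 h library, at 13.0 CPM, the log2 difference was -0.37 (edgeR adjusted p = 0.419), and over the 6 fits that left out a 0 h library in turn it ran from -0.75 to -0.37 and passed in 1. In a fit of the 0 h groups alone it was -0.58 (adjusted p = 0.357).

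Nr4a3 at 0 h, 159 ± 22.9 CPM in WT and 110 ± 22.5 CPM in KO (SD, n = 3), had a log2 difference of -0.51 (SE 0.122, 95% interval -0.76 to -0.26). It missed the threshold (edgeR adjusted p = 0.0836). DESeq2 on the same genes gave -0.52 with an adjusted p of 0.0150, but over the 6 edgeR fits that left out a 0 h library it ran from -0.66 to -0.37 and passed in 1, without the first KO 0 h library (adjusted p = 0.00255), with adjusted p of 0.0550 to 0.316 in the others. Nr4a1 at 0 h, 368 ± 49.7 against 290 ± 2.95 CPM, had a log2 difference of -0.34 (SE 0.0947, 95% interval -0.53 to -0.15, edgeR adjusted p = 0.132), which was -0.42 (adjusted p = 0.0479) without the second WT 0 h library and -0.23 (0.637) without the first. With no filter on low counts both Nr4a1 and Nr4a3 passed, at edgeR adjusted p of 0.0260 and 3.23e-05. For Tox the difference was -0.16 (95% interval -0.35 to 0.04, edgeR adjusted p = 0.716), and for Tox2 -0.46 (95% interval -1.03 to 0.12, edgeR adjusted p = 0.738). Both depended on single libraries. Tox ran from -0.06 without the first WT 0 h library to -0.26 without the first KO 0 h library, and Tox2 from -0.09 without the third WT 0 h library to -0.77 without the second.

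Markers listed for other lymphocytes differed between the genotypes at 0 h. The CD8 T cell and NK cell sums did not overlap, but each came mostly from a single gene. The share of all genes with every KO library above every WT library was not computed. The CD8 T cell markers Cd8a and Cd8b1 summed to 17.3 to 18.5 CPM in the WT libraries and 30.8 to 35.8 CPM in the KO libraries. Nearly all of that was Cd8b1, which rose from 17.4 ± 0.392 to 31.5 ± 1.83 CPM (SD, n = 3), while Cd8a stood at 0.346 to 2.26 CPM over the 6 libraries. The 3 NK cell markers summed to 14.1 to 18.4 CPM in WT and 19.4 to 28.1 CPM in KO, mostly Klrb1c, the only NK marker tested, which did not pass. Klra8 had 0 reads. Of the B cell markers Cd22 passed as lower in KO, at 7.41 ± 2.92 against 1.32 ± 0.136 CPM (SD, n = 3), while their sums overlapped at 21.0 to 29.9 and 16.8 to 28.6 CPM. Whether such cells were present was not tested, nor was their part in the 0 h levels of the receptor and TOX genes.

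At 24 h none of the 5 genes passed between genotypes by edgeR or DESeq2, where 0.273% of all tested genes did by edgeR. Nr4a1 and Tox had an unadjusted edgeR p below 0.05. By that test 5.91% of all tested genes had a smaller p than Nr4a1 and 1.00% a smaller p than Tox. All 5 log2 differences were again below 0, with a median of -0.19 against -0.010 over all genes, of which 52.3% were below 0. Tox had 94.2 ± 3.89 CPM in WT and 75.3 ± 7.01 CPM in KO (SD, n = 3), a log2 difference of -0.33 (SE 0.105, 95% interval -0.54 to -0.11, edgeR adjusted p = 0.325). The KO libraries lay below the WT libraries for Tox and for Nr4a2, against 7.19% of all tested genes. Nr4a2 had 150 ± 17.6 and 132 ± 5.01 CPM, a log2 difference of -0.19 (95% interval -0.41 to 0.04, edgeR adjusted p = 0.808). The ranges of Nr4a1 (-0.19, 95% interval -0.38 to -0.01), Nr4a3 (-0.06, -0.29 to 0.18) and Tox2 (-0.68, -1.43 to 0.08) overlapped, with edgeR adjusted p of 0.687, 0.974 and 0.770. For Nr4a2, Nr4a3 and Tox2 the interval leaves a difference in either direction possible. Without the third WT 24 h library the differences of Nr4a1 and Nr4a2 were -0.08 each, that of Nr4a3 was 0.02 and that of Tox2 was -0.38, while Tox2 was at -1.03 without the second.

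Whether genotype altered the response to the 24 h treatment was tested as an interaction, in which 0.00911% of all tested genes, a single gene, passed. None of the 5 did, and for 2 of them the unadjusted p was below 0.05. By the same edgeR test 3.03% of all tested genes had a smaller p than Nr4a2 and 1.39% a smaller p than Nr4a3. The interaction was 0.41 for Nr4a2 (95% interval 0.04 to 0.77, edgeR adjusted p = 0.929) and 0.45 for Nr4a3 (95% interval 0.11 to 0.80, edgeR adjusted p = 0.840), which is the amount by which the log2 time effect was larger in KO. It was 0.15 for Nr4a1, -0.17 for Tox and -0.22 for Tox2, with edgeR adjusted p of 0.996, 0.996 and 1.00. By DESeq2 none of the 5 passed either. With 1 of the 12 libraries left out the interaction ran from 0.20 to 0.57 for Nr4a2, the lowest without the first KO 0 h library, from 0.32 to 0.62 for Nr4a3, from 0.05 to 0.26 for Nr4a1, from -0.26 to -0.06 for Tox and from -0.58 to 0.10 for Tox2.

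**Figure D3:**
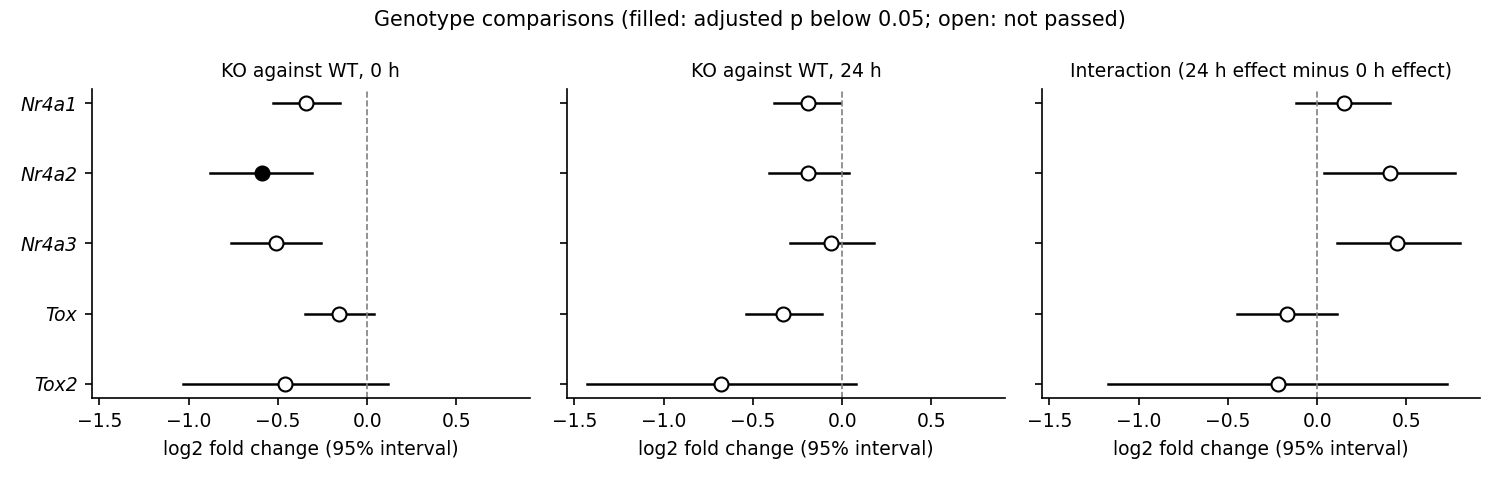
Log2 fold change of KO against WT at 0 h and at 24 h, and their difference (interaction), with 95% intervals from the edgeR fit, for the 5 genes. Nr4a2 at 0 h, at -0.59, is the only filled point, which marks an adjusted p below 0.05.

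The order of the 4 groups differed between the families. For each receptor gene the mean level went down from WT 24 h through KO 24 h and WT 0 h down to KO 0 h. For Tox and Tox2 it went down from WT 0 h through KO 0 h and WT 24 h down to KO 24 h. Neighbours in the order overlapped in their library values for WT 24 h and KO 24 h of Nr4a1 and Nr4a3, for WT 0 h and KO 0 h of Tox, and for both genotype pairs of Tox2. Every other pair of neighbours was separate. For neighbours of unlike time, the share of all tested genes that were as separate was not computed.

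Over the 12 libraries the receptor genes followed each other closely. Pearson's r of log2 CPM was 0.99 between Nr4a1 and Nr4a2, 0.99 between Nr4a1 and Nr4a3 and 0.98 between Nr4a2 and Nr4a3. It was 0.89 between Tox and Tox2, and -0.93 to -0.95 between Tox and each receptor gene. The 12 points share their groups, and most of this likeness is the difference between times. After the mean of its group was taken from each library, r was 0.26, 0.55 and -0.31 for the 3 receptor pairs and 0.22 for Tox and Tox2. Between Tox and the receptor genes it was then 0.36 for Nr4a1, -0.56 for Nr4a2 and 0.58 for Nr4a3, so the sign of the value turned for Nr4a1 and Nr4a3. None of these correlations was tested against 0, and they are given as a description.

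Among 8622 tested genes with a mean of at least 5 CPM, those most like Nr4a1 over the 12 libraries were Egr2 (r = 0.997), an early response factor of the T cell receptor that restrains activation, the transferrin receptor gene Tfrc (0.995) and Egr1 (0.993). For Nr4a2 they were the arginine transporter gene Slc7a1, the interferon gamma receptor gene Ifngr1 and Nolc1 of the nucleolus, each at 0.992. For Nr4a3 they were the proteasome subunit gene Psma7 (0.996), Rgs16, a regulator of G protein signalling (0.995), and the interferon regulatory factor gene Irf1 (0.994). Tox was closest to Zyx (0.991), Spty2d1 (0.990) and Midn (0.989). Tox2 was closest to Gtpbp1 (0.947), Foxp3 (0.947), the defining factor of regulatory T cells, and Ndufa1 (0.943).

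With group means taken off, the nearest genes were others. Nr4a1 had Stk16 (r = 0.934), Acvrl1 (0.917) and again Egr2 (0.912), and Nr4a3 had the AP-1 gene Fosl2 (0.958), Cnbp (0.928) and Txlng (0.927). Nr4a2 had Slamf1 (0.956), Mpp6 (0.940) and Prpf6 (0.930). Tox had Rnf216 (0.927), Evl (0.925) and Icmt (0.903), and Tox2 had Dnajc16 (0.935), Rrbp1 (0.896) and Rpusd4 (0.889). These are the highest of 8622 values over 12 libraries and are given as a description.

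Early response genes of the T cell receptor did not move as a block at 24 h. Of 13 tested of 14 listed, 7 rose and 6 fell in WT, and the counts were the same in KO. Over all tested genes 20.2% rose and 20.5% fell in WT, and 19.4% and 21.0% did in KO. The AP-1 genes were among the list members that fell. Fos went from 330 ± 23.2 to 8.51 ± 1.37 CPM in WT (SD, n = 3, log2 -5.26, edgeR adjusted p = 3.65e-33), and Fosb fell by 5.20 and Junb by 3.17 on the log2 scale (edgeR adjusted p = 7.71e-31 and 3.31e-28). Irf4, a factor whose level follows receptor signal strength, rose from 48.5 ± 4.94 to 768 ± 15.7 CPM (log2 3.99, edgeR adjusted p = 5.16e-33). In KO the values were -5.29 for Fos, -4.67 for Fosb, -3.27 for Junb and 4.11 for Irf4, each past the threshold. The receptor genes thus lay with the genes of the list that were higher at 24 h, beside Egr1 (1.31 in each genotype), Egr2 (2.75 and 2.86) and Egr3 (2.50 and 2.31).

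**Figure D4:**
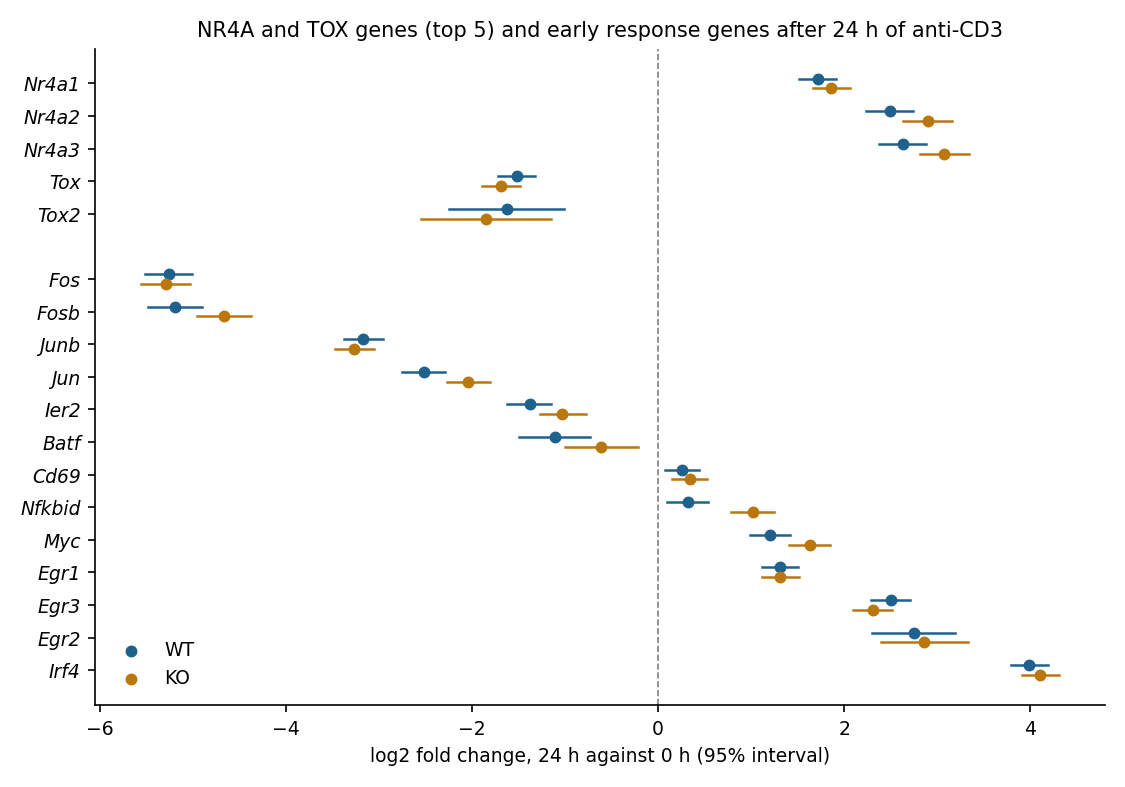
Log2 fold change of 24 h against 0 h with 95% intervals in WT and KO for the 5 genes (top) and the 13 tested early response genes (bottom), from the edgeR fit. Nr4a1, Nr4a2 and Nr4a3 lie between 1.72 and 3.08, Tox and Tox2 between -1.52 and -1.85, and Fos below -5.

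At 0 h, where Nr4a2 passed as lower in KO in the main fit, 3 of the 13 early response genes fell and none rose. These were Nfkbid, an atypical inhibitor of NF-kappaB (log2 -0.82, edgeR adjusted p = 1.62e-05), Myc (-0.50, adjusted p = 0.0236) and Irf4 (-0.42, adjusted p = 0.0494). Among all tested genes 0.346% passed in either direction and 0.228% as lower in KO. The list median was -0.32, against 0.004 over all tested genes, and 7 of the 13 had an unadjusted edgeR p below 0.05. At 24 h none of the 13 passed between genotypes by edgeR, 6 had an unadjusted p below 0.05 and DESeq2 called Irf4 alone. An unadjusted edgeR p below 0.0409 was found for 5.91% of all tested genes there. The list median was -0.12, against -0.010 over all tested genes. Egr1, the list's most abundant gene there, had 1344 ± 172 CPM in WT and 1117 ± 80.6 CPM in KO (SD, n = 3, log2 -0.27, edgeR adjusted p = 0.431).

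NFAT and calcineurin genes, which carry the calcium signal to the NR4A and TOX genes, were split over time. Of 19 tested of 20 listed, 5 rose and 8 fell in each genotype, with medians of -0.08 in WT and -0.16 in KO. The shares over all tested genes were 20.2% higher and 20.5% lower in WT, and 19.4% and 21.0% in KO. Nfatc2, which encodes NFAT1, went from 413 ± 12.6 to 163 ± 4.35 CPM in WT (SD, n = 3, log2 -1.34, edgeR adjusted p = 3.85e-17) and from 373 ± 36.8 to 179 ± 20.2 CPM in KO (log2 -1.06, edgeR adjusted p = 1.04e-13). The calmodulin gene Calm3 fell by 0.97 in WT and 1.04 in KO on the log2 scale, the calcium channel gene Orai1 rose by 0.79 and 0.56, and for the calcium sensor gene Stim1 the change was -0.72 and -0.76. Homer3, a scaffold that competes with calcineurin for NFAT, rose by 1.34 and 1.10 but had a mean of at most 5.08 CPM. Exons of Ddx49 overlap Homer3 on the opposite strand. None of the 19 passed between genotypes at either time by edgeR or DESeq2, with 1 at 0 h and 2 at 24 h at an unadjusted edgeR p below 0.05. For all tested genes the share at that cut was not computed. Nfatc1, the most abundant, differed by -0.04 at 0 h and -0.11 at 24 h (edgeR adjusted p = 0.945 and 0.861).

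The retinoid X receptor genes, whose products pair with Nr4a1 and Nr4a2 protein on DNA, passed in no comparison by edgeR. Of 3 listed, Rxra and Rxrb were tested. Rxrb had 56.4 ± 9.24 CPM in WT 0 h and 48.5 ± 7.93 in WT 24 h (SD, n = 3, log2 -0.21, edgeR adjusted p = 0.213), and Rxra 23.4 ± 1.17 and 25.4 ± 2.93 (log2 0.12, edgeR adjusted p = 0.601).

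Surface receptors of the exhaustion programme, to which both families are tied in tumour and chronic infection settings, went in both directions. Of 11 tested of 12 listed, 5 rose and 3 fell over time in each genotype, with medians of 0.45 in WT and 0.39 in KO. Among all tested genes 20.2% rose and 20.5% fell in WT, and 19.4% and 21.0% did in KO. The costimulatory receptor gene Tnfrsf9, for 4-1BB, rose by 2.52 in WT and 2.59 in KO, from 46.5 ± 4.58 to 265 ± 45.3 CPM in WT (SD, n = 3). Lag3, an inhibitory receptor for MHC class II, rose by 2.00 and 1.75. Havcr2, for TIM-3, also passed in both (4.54 and 1.95) from means of 0.0995 and 0.403 CPM, where a fitted fold change is uncertain. Cd38 and Cd160 fell, with log2 changes of -2.51 in WT and -1.06 in KO for Cd38 and of -1.43 and -1.37 for Cd160. The time effect of neither was shown to differ between genotypes (interaction edgeR adjusted p = 0.520 and 1.00). None of the 11 passed between genotypes by edgeR or DESeq2, with 2 at 0 h and 1 at 24 h at an unadjusted edgeR p below 0.05. For all tested genes the share at that cut was not computed.

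Over time, 20.2% of all tested genes rose and 20.5% fell in WT, and 19.4% and 21.0% did in KO. Beside these shares, genes of T cell subsets that use Tox2 or Tox gave the following counts. Of the follicular helper genes, 12 tested of 14 listed, 3 rose and 7 fell in WT and 3 rose and 5 fell in KO. The homing receptor gene Cxcr5 fell by 3.10 and 3.11, from 41.5 ± 15.7 CPM in WT 0 h to 4.93 ± 2.24 in WT 24 h (SD, n = 3), and Maf by 1.46 and 1.50. Bcl6, the subset's defining repressor, rose by 1.24 and 1.10. Of 8 regulatory T cell genes 3 rose and 3 fell in each genotype, with log2 changes of 1.87 and 1.90 for Il2ra, the high-affinity chain of the interleukin 2 receptor, and of -1.49 and -1.77 for Nrp1. Of 8 CD4 lineage regulators 2 rose and 5 fell in WT, and 1 rose and 5 fell in KO. Among these the log2 change was -1.50 in WT and -1.57 in KO for Cd4 itself, and -1.28 and -1.33 for Zbtb7b, the CD4 lineage factor. In none of these 3 lists did a gene pass between genotypes at either time or in the interaction, by edgeR or DESeq2. At an unadjusted edgeR p below 0.05 were 2 follicular helper genes at each time, 1 regulatory T cell gene at 0 h and 2 CD4 lineage genes at 24 h. In the interaction these were 2, 0 and 1. Shares of all tested genes at that cut were not computed.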

How the data were processed

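RNA of 12 libraries was prepared with a NuGen Ovation Mouse kit from 100 ng total RNA with depletion of ribosomal RNA, per the labels' protocols, which give a CD4+ purity above 95%. STAR 2.6.0c, DESeq and build hg19 are named in the submitters' processing notes. The rows carry mouse symbols, so the build is uncertain. Which counter, annotation and strand option were used is not given in the sources used here. Exons of other named genes, Sirt2, Junb, Cxcr5 and Cd160 among them, also overlap exons of another gene on the opposite strand. The authors deposited raw read counts per gene symbol. Of the 5 closing rows that name no gene, reads in no feature made up 22.8% to 35.4% and reads mapped to several places 25.7% to 30.9% of all reads counted, and both stayed out of library sizes. The ribosomal precursor Rn45s held 7.95% to 17.5% of gene reads.

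Genes were kept by edgeR's filterByExpr (minimum count 10, minimum total 15), which left 10981. They were scaled by TMM and fitted over the 4 groups with edgeR 4.0.16 (quasi-likelihood, robust, R 4.3.3). Benjamini-Hochberg adjustment ran over all tested genes with a threshold of 0.05. Errors of fold changes were taken from the test statistic and intervals are 95%. Scripts were tested on simulated counts. Alternatives were RLE factors, no filter, at least 1 CPM in 6 libraries, DESeq2 1.42.0, only the groups compared, the replicate number as a block, Rn45s left out of library sizes, and each library left out. Libraries of a group differed from each other by more than counting noise.

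The 5 genes, the gene lists and the tests were chosen with earlier results of these data known. Named genes are the 5, up to 4 with the largest change among those that passed per list and comparison or up to 2 of the most abundant where none did, and the 3 most correlated with each of the 5. Egr1, Egr2 and Egr3 over time, and Cd22 and Cd8b1 among the markers, were named after their values were seen. Gene lengths are merged exons of GENCODE vM21. Promoter windows are RefSeq's, on build GRCm38.p6.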

Additional observations from a re-analysis of the deposited data

How the results depend on the processing

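All 5 genes passed over time in both genotypes under the 7 alternatives of scaling, filter, test, block and samples, and in the 6 fits that left out a library of the comparison in turn. At 24 h and in the interaction none of the 5 passed under any alternative. The 0 h count is the result that moved. It was 1 gene, 3 with no filter, 2 with DESeq2 and 0 with only the groups compared, and 0 to 2 when 1 of the 12 libraries was left out. Nr4a2 passed in 5 of the 7 alternatives, Nr4a3 in 3 and Nr4a1 in 1. Leaving out a 24 h library, which enters only through the shared spread and the filter, gave Nr4a2 adjusted p of 0.0554 to 0.0696 in 5 of 6 fits. Signs reversed for Nr4a3 at 24 h, to 0.02 without WT 24 h replicate 3 (-0.16 to 0.02 over the fits without a library), and for the interaction of Tox2, to 0.10 without WT 0 h replicate 2 and 0.07 without WT 24 h replicate 3 (-0.58 to 0.10). Over all genes, 38 passed at 0 h, against 24 with only the groups compared and 59 with no filter. With 1 library left out 17 to 42 passed, under 38 by more than 1.5 times without KO 0 h replicate 3 (17), KO 0 h replicate 2 (22) and WT 0 h replicate 1 (25). At 24 h 30 passed, and 14 to 36 with 1 library left out, lowest without WT 24 h replicate 2 (14), KO 24 h replicate 1 (16) and KO 24 h replicate 3 (16). With Rn45s left out the library sizes are smaller, so CPM levels were higher, such as Nr4a1 in KO 0 h at 327. The cause of the other changes was not tested. With only the groups compared the interaction has no value.

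The replicate numbers were checked as pairs. Deviations from group means correlated at -0.09 to 0.09 over the 12 same-number pairs, none above 0.1, and libraries correlated best with their own number, among 3, in 11 of 24 cases. The main fit did not treat the numbers as pairs because the titles do not state pairing. With low correlations but 11 of 24 best matches to their own number, the check does not settle whether libraries were paired. With the replicate block 1 gene passed at 0 h, Nr4a3 (-0.52, adjusted p = 0.0177), and Nr4a2 did not (-0.59, adjusted p = 0.0648). Depth limits Tox2 most, at 15 to 52 reads per 24 h library.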
